A study of Mus musculus with 23 samples.

Results

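The set described here holds the 10 genes of the RAP1 switch that were chosen by symbol, out of 19733 genes in the hippocampal table: 2 RAP1 GTPases (Rap1a and Rap1b), 6 exchange factors (Rapgef1 to Rapgef6) and 2 GTPase-activating proteins (Rap1gap and Sipa1l1). The rule takes them by symbol and not by a measured value, though with earlier results of these data known, and all 10 passed the filter of a mean of at least 0.1 FPKM (sequenced fragments for each kilobase of a transcript, relative to the size of the library). RNA was sequenced from the hippocampus of 23 male C57BL/6J mice acquired at 6 weeks of age and kept on liquid diet for 16 weeks before 1 week of behavioral testing. The 9 Ctrl mice received a control liquid diet and daily gavage of CMC-Na, the carboxymethyl cellulose vehicle. The 7 EtOH mice received an ethanol liquid diet with the same vehicle gavage, and the 7 EtOH-UA mice received the ethanol diet with urolithin A (UA), a gut microbial metabolite of ellagitannins, at 200 mg/kg/day in that vehicle. All groups therefore carried the gavage and the liquid diet, there was no group given UA on the control diet, and all mice were of 1 strain and sex.

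RAP1A and RAP1B are small GTPases of the RAS superfamily that act while bound to GTP. Exchange factors load them with GTP. RAPGEF3 and RAPGEF4 (EPAC1 and EPAC2) do so when they bind cAMP, which ties RAP1 to receptors that raise or lower cAMP, and RAPGEF1 does so downstream of CRK adaptors. GTPase-activating proteins such as RAP1GAP and SIPA1L1 (SPAR) return RAP1 to its GDP-bound state. In neurons RAP1 is known for its part in integrin adhesion, dendritic spine shape and the endocytosis of AMPA receptors. The activity of this switch is set by bound nucleotide, which RNA levels do not measure.

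Rap1a and Rap1b code for near-identical proteins, so whether reads can tell the 2 genes apart bears on every value given for them. Their coding sequences are 555 bases each in the GENCODE M21 transcripts (GRCm38, the assembly also called mm10), Rap1a within chr3:105731985-105750301 and Rap1b within chr10:117817374-117824650, both on the minus strand. They were identical at 81.62% of positions, and 79 of the 102 bases that differ lay at the third codon position. The first 90 coding bases are shown because they hold the nucleotide-binding loop of both GTPases, with capitals at the 13 positions that differ between both genes.
Rap1a: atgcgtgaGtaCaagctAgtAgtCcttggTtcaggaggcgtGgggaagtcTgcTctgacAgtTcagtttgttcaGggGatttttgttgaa
Rap1b: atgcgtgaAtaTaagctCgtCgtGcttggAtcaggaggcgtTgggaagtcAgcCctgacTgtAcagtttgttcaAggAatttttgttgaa
The longest run shared without a difference was 20 bases, at coding positions 79 to 98 (atttttgttgaaaaatatga), far shorter than the 100-base reads. No window of 100 bases of either longest transcript was found in the other gene. Of the 2308 such windows of Rap1a, 70 (3.03%) were also found in the processed pseudogene Gm9392. None of the windows of the other 9 members was found in another gene's transcript. The search took exact matches of each member's longest transcript to annotated transcripts, on the annotated strand. It cannot show whether reads with mismatches or from other isoforms are shared.

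Neuronal and hippocampal markers were present in every mouse, with summed levels of 5 pan-neuronal genes between 1747 and 2107 FPKM and of 8 excitatory hippocampal genes between 1391 and 1768 FPKM. The tissue also held choroid plexus RNA in amounts that differed widely between mice (summed level of 6 markers from 7.84 to 7813 FPKM). Summed FPKM ranged from 327896 to 404609, and 2 EtOH-UA mice, at 404609 and 379518, stood above the other 21. Low values of 24 single-transcript genes fell on even steps, whose size gave an estimated depth of 16.7 fragments on each kilobase of a gene at 1 FPKM (median of these genes). On that estimate the members rested on between 615 fragments per mouse (Rapgef3) and 10931 (Rapgef4), for which counting error alone is 4.03% and 0.956% of the level. Fewer cells of a type and less RNA per cell cannot be told apart in such bulk samples.

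Levels in Ctrl mice are given first, in FPKM, which is a level per length of transcript. The libraries still differed in how values followed transcript length and GC content, as described below. Small differences in FPKM between genes therefore need not be differences in RNA. Rapgef4, the cAMP-gated exchange factor of the brain (chr2:71981215-72257474), was the highest member at 158 ± 13.2 FPKM (mean ± SD, n = 9), with a lowest, median and highest mouse of 136.95, 156.35 and 176.37. Sipa1l1, a GTPase-activating protein of the postsynaptic density (chr12:82169377-82451786), followed at 49.7 ± 2.71 FPKM, with mice from 45.48 to 53.38. The difference between this pair was 3.17-fold and their ranges did not overlap. Rap1gap, the GTPase-activating protein that gave its family the name (chr4:137664711-137729861), stood at 43.3 ± 4.55 FPKM, with mice from 34.68 to 50.56 and a median of 43.26.

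Rapgef5, an exchange factor first described as GFR (chr12:117516526-117759737), was at 40.1 ± 2.81 FPKM in Ctrl mice, with a lowest, median and highest mouse of 37.4, 39.86 and 44.63. Rapgef2, also known as PDZ-GEF1 (chr3:79062511-79286545), was at 35.8 ± 2.18 FPKM, with mice from 32.99 to 39.19. Rap1b (chr10:117814597-117845974) was at 33.7 ± 3.54 FPKM, with a lowest, median and highest mouse of 28.31, 33.21 and 39.45. These levels, of a GTPase and 2 of its exchange factors, lay close together and their ranges overlapped. Rap1a (chr3:105727260-105801394) was at 25.6 ± 3.20 FPKM, with a lowest, median and highest mouse of 20.83, 27.09 and 29.43. Rapgef1 (chr2:29619720-29740364) was at 20.7 ± 1.39 FPKM, with mice from 18.99 to 23.87. Both lowest members were exchange factors: Rapgef3, the EPAC found in most tissues (chr15:97744770-97768419), at 8.82 ± 1.16 FPKM, and Rapgef6 (chr11:54522809-54699286), at 8.16 ± 0.854 FPKM.

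Of the 9 steps in this order, 3 could not be told apart in Ctrl mice by a two-sided exact sign-flip permutation test of the paired log2 difference. By that exact test these were Rap1gap over Rapgef5 (1.07-fold, higher in 6 of 9 mice, p = 0.199), Rapgef2 over Rap1b (1.06-fold, 6 of 9, p = 0.121) and Rapgef3 over Rapgef6 (1.08-fold, 7 of 9, p = 0.113). The other 6 steps had exact permutation p between 0.00391, the smallest that 9 mice allow, and 0.0195 before any adjustment. The order was taken from the means of the same 9 mice, so the direction of each step was set before it was tested. Rap1b exceeded Rap1a in 23 of 23 mice, by 1.32-fold in Ctrl mice, and Rap1b made up 56.9% ± 1.25 (SD, n = 9) of the summed level of both GTPases in Ctrl mice, 58.5% ± 0.985 (n = 7) in EtOH mice and 58.6% ± 1.01 (n = 7) in EtOH-UA mice. Rapgef4 exceeded Rapgef3, the other cAMP-gated factor, by a mean of 18.1 times in Ctrl mice, 17.6 times in EtOH mice and 18.4 times in EtOH-UA mice, and made up 58.2%, 56.8% and 58.7% of the summed level of all 6 exchange factors. The spread of that ratio was widest in EtOH mice (13.8 to 21.5) and narrowest in EtOH-UA mice (17.0 to 19.0).

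**Figure D1:**
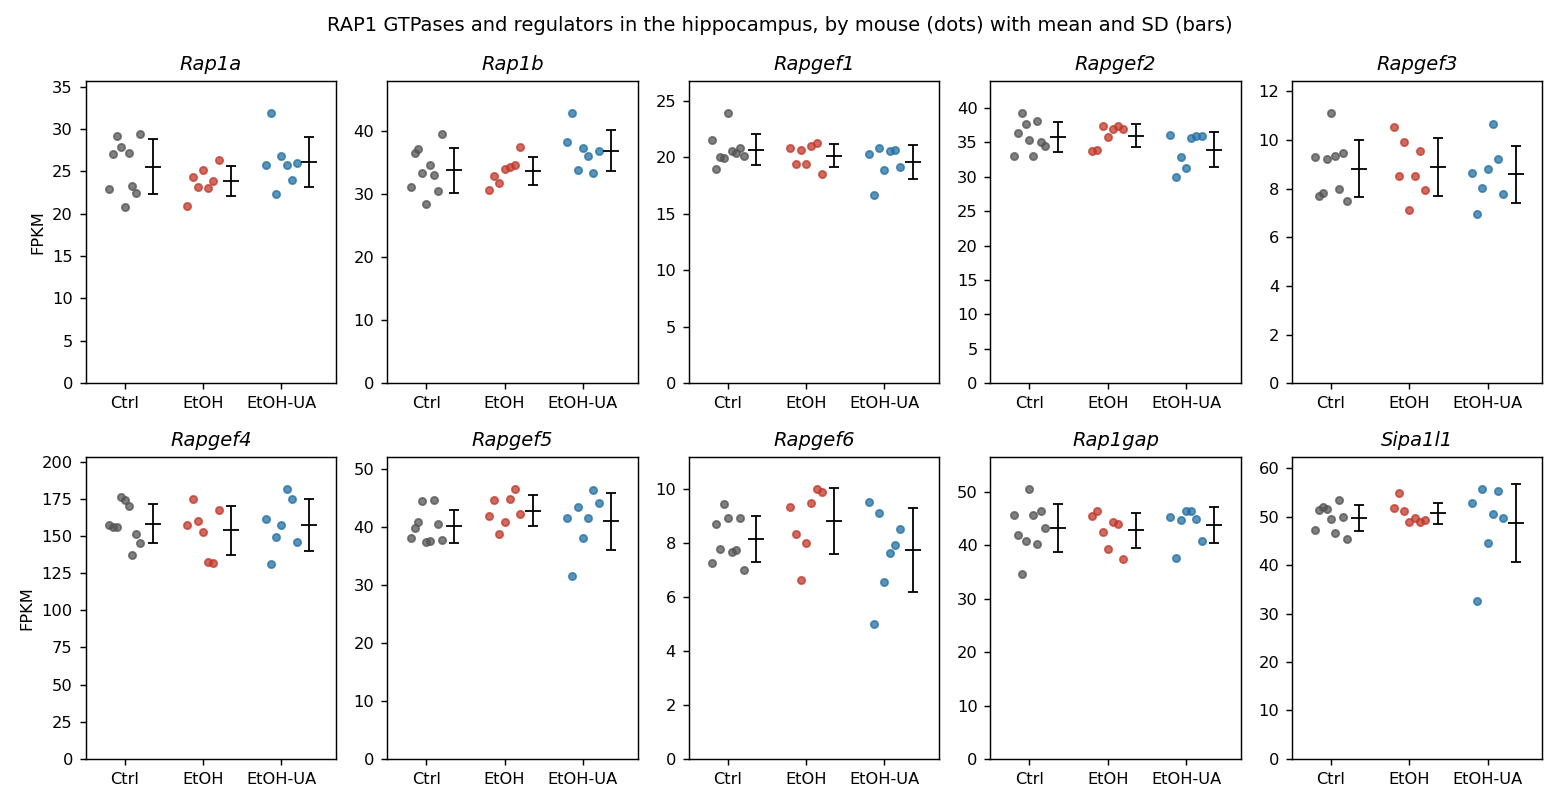
Level of each of the 10 members in every mouse, in FPKM on axes that start at 0, by group, with black bars for the mean and SD (n = 9, 7 and 7). The groups overlap in every panel. Of all mice, 1 EtOH-UA mouse is the highest for Rap1a (31.84) and Rap1b (42.72). It is also the lowest for Sipa1l1 (32.64) and all 6 exchange factors, Rapgef1 to Rapgef6 (16.61, 29.92, 6.97, 130.86, 31.58 and 5.0).

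The EtOH and Ctrl groups were compared to ask whether long alcohol feeding changed the RNA of the RAP1 switch. No member passed an adjusted p under 0.05 in limma, and no gene of the 15986 tested did (0% called, with 3.05% at an unadjusted p under 0.05). None of the 10 members had an unadjusted p under 0.05 either. Of the members 6 had a higher mean in EtOH mice, against 48.6% of all genes, and the median log2 fold change of the members was 0.0040 against -0.0030 over all genes tested. The ranges of both groups overlapped for all 10 members, and they failed to overlap for 0.00626% of all genes.

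Among the GTPases, Rap1a had a lowest, median and highest level of 20.9, 23.87 and 26.4 FPKM in EtOH mice. All 7 EtOH mice lay below the Ctrl median of 27.09, and 4 of 9 Ctrl mice lay below the EtOH median, so the groups overlapped. The Rap1a level differed by -6.34% (95% interval -15.96 to 4.39%; limma p = 0.225, adjusted p = 0.999; exact permutation p = 0.244). Rap1b had values from 30.63 to 37.44 FPKM with a median of 33.97 in EtOH mice, and its difference from Ctrl mice was 0.0102% (95% interval -8.67 to 9.51%; limma p = 0.998; exact permutation p = 0.998).

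Among the exchange factors, the largest differences in EtOH mice without a covariate were those of Rapgef6 and Rapgef5. With the length slope of each library (the trend of its values with transcript length) as a covariate, these came to 2.54% and 4.21%, next to -3.74% for Rapgef4 and -3.46% for Rapgef1. Rapgef6 had a lowest, median and highest level of 6.64, 9.32 and 10 FPKM in EtOH mice and of 7.01, 7.77 and 9.43 in Ctrl mice. Its mean was 7.48% higher (95% interval -8.06 to 25.6%; limma p = 0.350; exact permutation p = 0.259). Rapgef5 had 38.8, 42.27 and 46.53 FPKM in EtOH mice, and 6 of 7 EtOH mice lay above the Ctrl median of 39.86. Its mean was 6.76% higher (95% interval -2.55 to 17.0%; limma p = 0.152, adjusted p = 0.999; exact permutation p = 0.0722). Rapgef1, Rapgef2, Rapgef3 and Rapgef4 differed from Ctrl mice by -2.51%, 0.618%, 0.543% and -2.95%. For the GTPase-activating proteins the differences were -0.797% for Rap1gap (37.51 to 46.43 FPKM in EtOH mice) and 2.06% for Sipa1l1 (48.88 to 54.97 FPKM). The 95% interval was widest for Rapgef6 and narrowest for Rapgef2, where it ran from -6.06 to 7.77%.

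The EtOH-UA and EtOH groups were compared to ask whether UA changed these genes on the ethanol diet. No member and no other gene passed an adjusted p under 0.05 in limma (0% called, with 3.27% at an unadjusted p under 0.05). Both GTPases had higher means in EtOH-UA mice, while 5 of 6 exchange factors and Sipa1l1 had lower means. Higher means were thus found for 4 of 10 members against 51.2% of all genes, with a median log2 fold change of -0.046 against 0.0033 over all genes tested. Of the members with lower means, Rapgef1, Rapgef3, Rapgef5 and Sipa1l1 turned higher without the 2 EtOH-UA mice of highest summed FPKM. They also turned higher with the slopes of each library on transcript length and GC content as covariates. These 2 checks overlap, as the same 2 mice had the lowest length slopes. The ranges overlapped for all 10 members, as they did for all but 0.025% of genes.

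Rap1b had a lowest, median and highest level of 33.23, 36.74 and 42.72 FPKM in EtOH-UA mice, and 5 of 7 lay above the EtOH median of 33.97. The mean was 36.8 ± 3.17 FPKM against 33.6 ± 2.204 FPKM (SD, n = 7 each), or 9.41% higher (95% interval -0.625 to 20.5%). The test across all genes gave a limma p of 0.0656 and an adjusted p of 0.900, and the exact permutation test over 3432 splits gave p = 0.0431 with no adjustment for the 30 member tests. Rap1a had 22.32, 25.79 and 31.84 FPKM, with 6 of 7 EtOH-UA mice above the EtOH median of 23.87. Its mean was 9.07% higher (95% interval -2.78 to 22.4%; limma p = 0.132, adjusted p = 0.900; exact permutation p = 0.102). The highest value of both genes came from the EtOH-UA mouse with the highest summed FPKM. Without the 2 EtOH-UA mice of highest summed FPKM the differences were 5.84% for Rap1b (limma p of 0.247) and 4.04% for Rap1a (limma p of 0.484), both with an adjusted p of 0.999.

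Rapgef6 had a lowest, median and highest level of 5.0, 7.93 and 9.51 FPKM in EtOH-UA mice, and 1 of 7 lay above the EtOH median of 9.32. Its mean was lower by 0.20 on the log2 scale (fold ratio 0.872, standard error 0.12; limma p = 0.0998, adjusted p = 0.900; exact permutation p = 0.190). Its lowest values, 5.0 and 6.54, came from the same 2 EtOH-UA mice, and without them the log2 difference was -0.036. Rapgef2 had 29.92, 35.56 and 36.05 FPKM, and no EtOH-UA mouse exceeded the EtOH median of 36.9. Its ratio was 0.941 (limma p = 0.10; exact permutation p = 0.106), and without the same 2 mice its difference went from -5.86% to -1.97%. Rapgef5 differed by -4.83%, Rapgef1 by -3.10% and Rapgef3 by -3.20%, and Rapgef4 differed by 2.21% (130.86 to 181.53 FPKM in EtOH-UA mice). Rap1gap differed by 2.32%, with EtOH-UA mice from 37.61 to 46.53 FPKM. Sipa1l1 had 32.64, 50.58 and 55.71 FPKM, with the lowest value far from the next, 44.59, and its mean differed by -5.04% (95% interval -15.5 to 6.76%).

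The EtOH-UA and Ctrl groups were compared to ask how far the treated mice were from mice that had received no ethanol. No gene passed an adjusted p under 0.05 in limma (0% called, with 3.08% at an unadjusted p under 0.05), and no member had an unadjusted p under 0.05. Of the members 4 had higher means in EtOH-UA mice against 51.2% of all genes, with a median log2 fold change of -0.025 against 0.0024. The ranges overlapped for all 10 members and failed to overlap for 0.0125% of genes. All 7 EtOH-UA mice were above the Ctrl median of Rap1b (33.21 FPKM), the lowest of them at 33.23 FPKM, and the mean was 9.43% higher (95% interval -0.0661 to 19.8%; limma p = 0.0516, adjusted p = 0.999; exact permutation p = 0.0858). This comparison shares its EtOH-UA mice with the previous one, so the 2 values for Rap1b are not independent. Without the 2 EtOH-UA mice of highest summed FPKM the Rap1b difference was 5.85% (limma p of 0.224). The other members differed from Ctrl mice by between -6.32% (Rapgef6) and 2.15% (Rap1a), and without those 2 mice both ends turned direction, to 4.80% and -2.56%. Rapgef5 went from 1.60% to 8.25% without them (limma p of 0.0357, adjusted p of 0.734). In that fit 981 of 15992 genes had an unadjusted limma p under 0.05. With all mice, Rapgef1 (ratio 0.945, limma p = 0.117, exact permutation p = 0.145) and Rapgef2 (ratio 0.947, limma p = 0.116, exact permutation p = 0.139) had the smallest p-values among these other members. Without those 2 mice their differences were -1.83% and -1.37%.

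**Figure D2:**
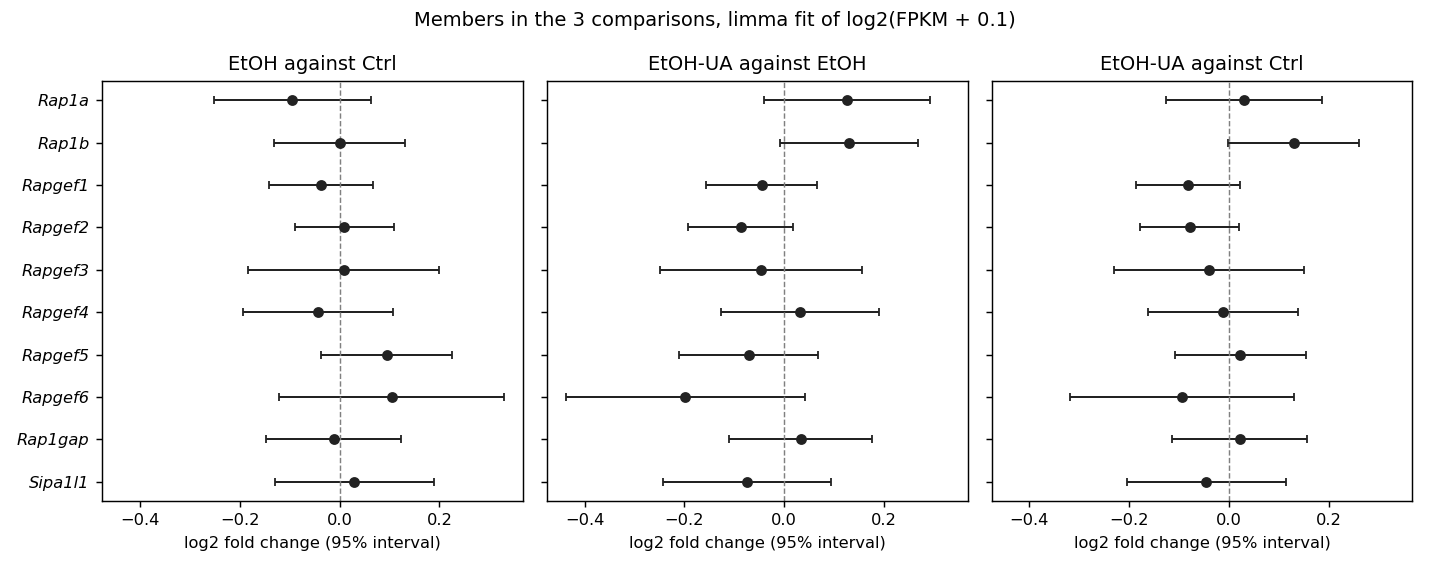
Log2 fold change of each member in the 3 comparisons, from the limma fit of log2(FPKM + 0.1), with 95% intervals as bars and no change as a dashed line. All 30 intervals include 0, and the one closest to leaving it out is that of Rap1b in EtOH-UA against Ctrl mice.

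Some pairs of members varied together between mice of the same group. What share of pairs of other genes would pass was not computed, so the counts describe these pairs alone. Deviations of log2(FPKM + 0.1) from the group means were correlated over the 23 mice for all 45 pairs of members, and 17 pairs had an adjusted permutation p under 0.05 (Benjamini-Hochberg over 45 pairs, 100000 permutations within groups, two-sided), 9 of them positive and 8 negative. Without the EtOH-UA mouse of highest summed FPKM the number was 10, and without both such mice it was 9. The closest pair was Rap1a and Rap1b, with Pearson's r = 0.914 and Spearman's rho = 0.859 (permutation p = 1e-05, the smallest these permutations can give, and adjusted p = 0.00023 for r). Without the 2 mice farthest from the median of Rap1a the value was r = 0.871, and r within Ctrl, EtOH and EtOH-UA mice was 0.922, 0.838 and 0.940. Both GTPases thus varied as a pair within each group, Ctrl mice included.

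Against this pair ran Rapgef1, Rapgef3, Rap1gap and Sipa1l1. Rap1a and Rapgef1 had r = -0.809 (rho = -0.769, adjusted permutation p = 0.00023) and Rap1b and Rapgef3 had r = -0.709 (rho = -0.685, adjusted permutation p = 0.0019). Rap1a and Rap1gap had r = -0.677 (rho = -0.584, adjusted permutation p = 0.0047). Each of these kept its sign in all 3 groups, with r without the 2 farthest mice of -0.688, -0.610 and -0.530. Sipa1l1 had r = -0.534 with Rap1a and -0.508 with Rap1b (adjusted permutation p = 0.0336 and 0.0287 for r, 0.154 for both rho), strongest in EtOH-UA mice (-0.943 and -0.886) and weakest in Ctrl mice (-0.116 and -0.144). Among themselves Rapgef1, Rapgef3 and Rap1gap were positively related (r from 0.700 to 0.737). Among Rapgef2, Rapgef5, Rapgef6 and Sipa1l1, 5 of 6 pairs were positive and past the threshold, and Rapgef2 with Rapgef6 was not (r = 0.493, adjusted permutation p = 0.0755). The values were r = 0.822 for Rapgef5 and Sipa1l1 (rho = 0.690, adjusted permutation p = 0.0019) and r = 0.733 for Rapgef5 and Rapgef6 (rho = 0.583, adjusted permutation p = 0.0055). Rapgef5 and Sipa1l1 were related at r = 0.809 in Ctrl and 0.958 in EtOH-UA mice and at 0.039 in EtOH mice. In EtOH mice r was also -0.740 for Rapgef2 and Sipa1l1, -0.299 for Rapgef6 and Sipa1l1 and -0.034 for Rapgef2 and Rapgef5, and whether these differ between groups was not tested. Without the 2 mice farthest from the median of Rapgef5 the values over all groups were r = 0.591 for Sipa1l1 and 0.602 for Rapgef6. Rapgef4 was in no pair past the threshold, and its highest r was 0.505, with Rapgef3 (adjusted permutation p = 0.0531).

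The members of these pairs differ in transcript length and GC content. Rap1a and Rap1b have the shortest longest transcripts of the members (2407 and 2724 bases) and the lowest GC content (38.85% and 39.9%), while Rapgef1, Rapgef3 and Rap1gap have the highest GC content (56.15%, 56.37% and 59.28%). Rapgef2, Rapgef5, Rapgef6 and Sipa1l1 are long (6964, 6746, 8189 and 8215 bases). For each mouse a length slope and a GC slope were taken over 12761 genes without the members, as the change in a gene's log2 deviation from its mean over all mice per doubling of transcript length and per 10 points of GC content. The length slope ran from -0.263 to 0.090 and was lowest in the 2 EtOH-UA mice of highest summed FPKM (-0.263 and -0.158), and the GC slope ran from -0.144 to 0.178. All 3 groups overlapped in both. Over the 23 mice the length slope had r = -0.995 with summed FPKM and r = -0.71 with the GC slope.

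Rapgef6 followed the length slope most closely, with r = 0.903 and rho = 0.817 over 23 mice (adjusted permutation p = 8e-04 over 160 relations to library measures; r = 0.798 without the 2 farthest mice) and r of 0.727, 0.981 and 0.930 within Ctrl, EtOH and EtOH-UA mice. Rapgef5 (r = 0.829, rho = 0.738), Sipa1l1 (r = 0.755, rho = 0.656) and Rapgef2 (r = 0.685, rho = 0.677) also rose with it, at adjusted permutation p of 0.0032, 0.0265 and 0.0232. For Sipa1l1 the adjusted permutation p of rho was 0.0526, and within EtOH mice r was -0.208 for Sipa1l1 and -0.071 for Rapgef2. Both slopes together took up 86.8% of the within-group variance of Rap1b, 82.1% of that of Rapgef6, 77.7% of that of Rap1a, 73.9% of that of Sipa1l1 and 70.0% of that of Rapgef5. For Rapgef1 the share was 67.4%, for Rapgef2 47.9%, for Rapgef3 43.5%, for Rap1gap 41.3% and for Rapgef4 16.8%. The median share was 68.7% over the members and 47.1% over the 12904 genes that averaged 1 FPKM or more.

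With both slopes removed, 0 of the 45 pairs had an adjusted permutation p under 0.05. The highest value left was r = 0.562 for Rap1a and Rap1b (adjusted permutation p = 0.136), and Rap1a with Rapgef1 came to -0.363 and Rap1b with Rapgef3 to -0.346. Of the 19 pairs with r of at least 0.5 in either direction, 4 stayed at 0.5 or more with the same sign: Rap1a with Rap1b, Rapgef1 with Rap1gap (0.520), Rapgef3 with Rap1gap (0.530) and Rapgef5 with Sipa1l1 (0.533). Used as covariates in the group fits, both slopes left the Rap1b level of EtOH-UA mice 4.06% above that of Ctrl mice (limma p of 0.0498, adjusted p = 0.872) and 4.096% above that of EtOH mice (limma p of 0.0643). Under the same fit Rap1a was lower by 0.090 on the log2 scale in EtOH than in Ctrl mice (limma p of 0.0307, adjusted p = 0.987). This was close to the -0.094 found without covariates. Of the 15986 genes tested in this fit, 785 had an unadjusted limma p under 0.05 in EtOH against Ctrl mice. In EtOH-UA against Ctrl mice 913 did.

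**Figure D3:**
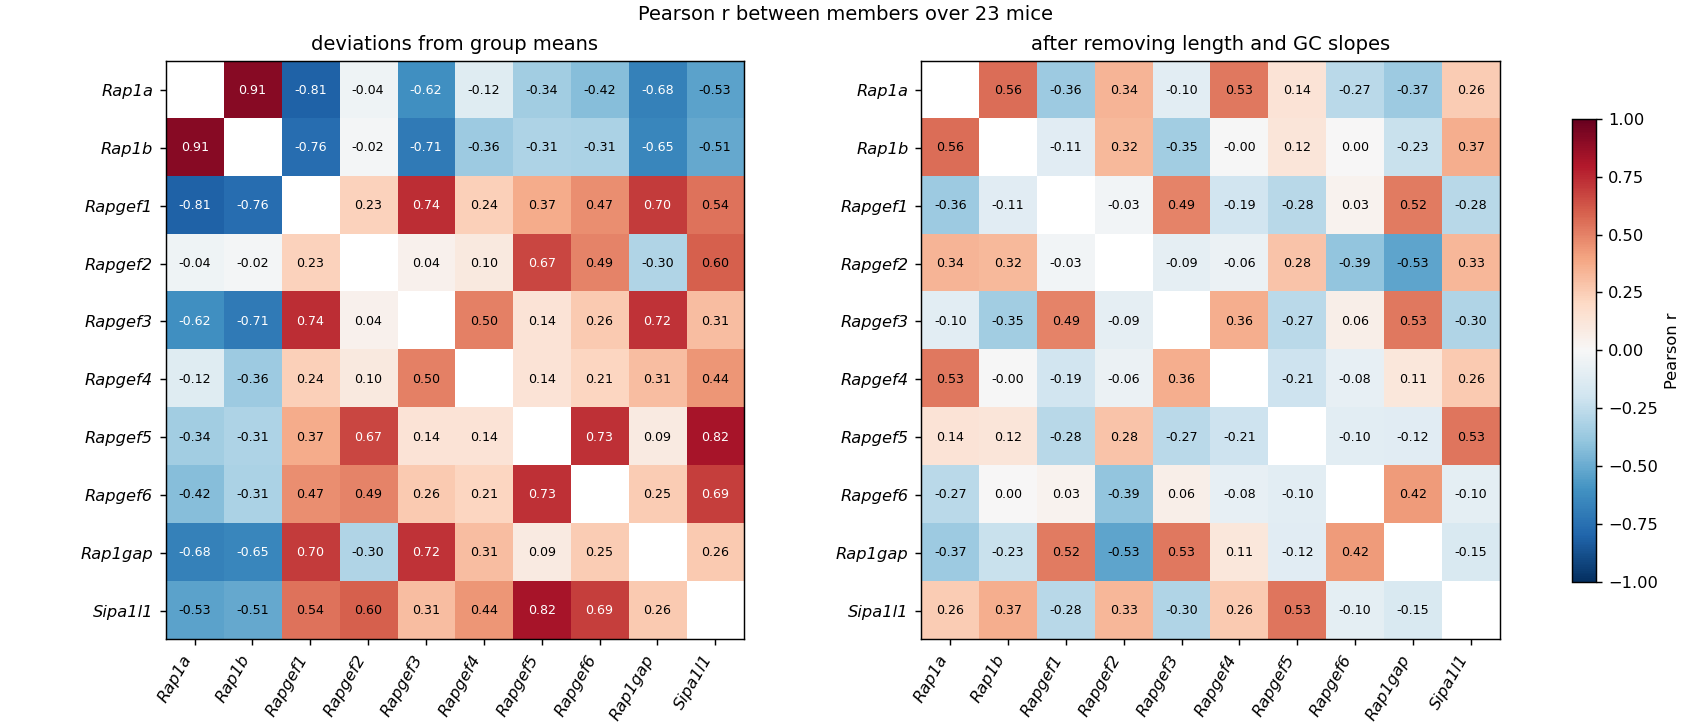
Pearson's r for each pair of members over 23 mice, as deviations from group means (left) and after the length and GC slopes of each library were also removed (right). On the left Rap1a and Rap1b stand at 0.91 with negative values against Rapgef1, Rapgef3 and Rap1gap, and on the right no pair exceeds 0.56 in either direction.

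**Figure D4:**
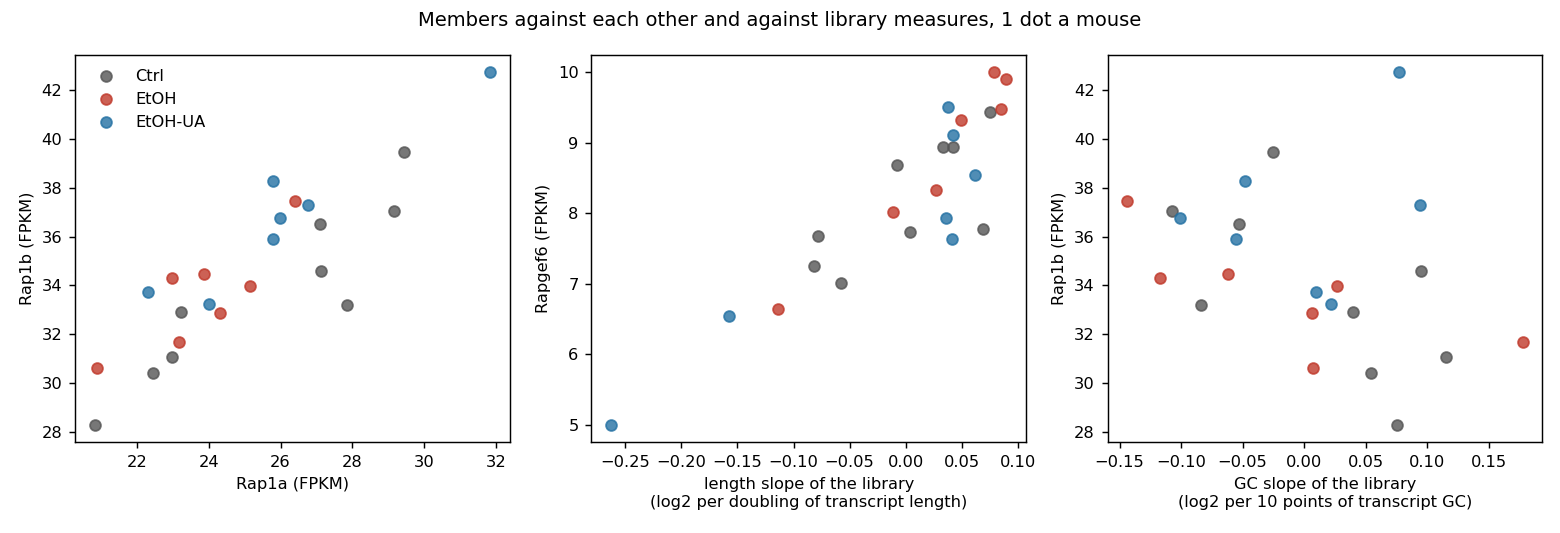
Rap1b against Rap1a, Rapgef6 against the length slope and Rap1b against the GC slope of each library, with 1 dot a mouse, levels in FPKM and colors for the groups. The lowest Rapgef6 values (5.0 and 6.54 FPKM) belong to the 2 EtOH-UA mice with the lowest length slopes.

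Levels of other cell types moved with some members. Rap1gap rose with the summed level of 6 interneuron markers (r = 0.711, rho = 0.579, adjusted permutation p = 0.0085 for r and 0.0526 for rho; r = 0.481 without the 2 farthest mice). Rapgef4 rose with 6 oligodendrocyte markers (r = 0.646, rho = 0.610, adjusted permutation p = 0.016) and fell with 6 markers of meningeal fibroblasts (r = -0.578, rho = -0.618, adjusted permutation p = 0.0283). Both relations of Rapgef4 had the same sign in all 3 groups. The negative relations of Rapgef6 and Rapgef5 to microglial markers (r = -0.808 and -0.732) and to endothelial markers (r = -0.777 and -0.620) and that of Rapgef2 to microglial markers (r = -0.612, rho = -0.576, adjusted permutation p = 0.0307) stand beside the length slope, with which these members also moved. Rapgef5 rose with 6 markers of thalamus and septum, tissue that borders the hippocampus (r = 0.740, rho = 0.767, adjusted permutation p = 0.0024), with r of 0.752, 0.852 and 0.747 within Ctrl, EtOH and EtOH-UA mice, and so did Sipa1l1 (r = 0.579, rho = 0.597, adjusted permutation p = 0.0265). Rapgef5 and Sipa1l1 also moved with the length slope, at r = 0.829 and 0.755 (rho = 0.738 and 0.656). Within Ctrl, EtOH and EtOH-UA mice r with that slope was 0.589, 0.780 and 0.929 for Rapgef5. For Sipa1l1 it was 0.758, -0.208 and 0.925 in the same groups, next to 0.793, 0.241 and 0.749 with these markers. The summed level of the thalamus and septum markers ran from 30.6 to 42.0 FPKM in Ctrl mice. It ran from 33.2 to 47.7 FPKM in EtOH and from 30.5 to 45.8 FPKM in EtOH-UA mice. What share of such relations would pass for other genes was not computed. In all, 10 of 130 relations of a member to a marker list had an adjusted permutation p under 0.05. None of the members was related to the choroid plexus level at that threshold, the strongest being Rap1gap (r = -0.496, rho = -0.474, adjusted permutation p = 0.152). The part of these cell types in the members' levels was not tested.

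Of the 10 members, 8 varied less between mice of a group than the median gene. Their mean within-group coefficient of variation ran from 6.06% (Rapgef2) and 6.51% (Rapgef1) to 13.5% (Rapgef3) and 14.8% (Rapgef6), against a median of 11.2% and a lower quartile of 8.10% over the 12904 genes at 1 FPKM or more. For Rap1a it was 10.4% and for Rap1b 8.56%, and the counting error estimated for these was 3.14% and 2.52%. The 12904 genes were not matched to the members by level, on which counting error depends.

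Other genes of the pathway were counted from 5 lists of 57 genes. All 57 were tested and none had an adjusted p under 0.05 in limma in any comparison. At an unadjusted p under 0.05, 2 of 57 (3.51%) were called in EtOH against Ctrl mice, 0 in EtOH-UA against EtOH mice and 2 in EtOH-UA against Ctrl mice, all with lower levels, next to 3.05%, 3.27% and 3.08% of all genes. Rasip1, an endothelial partner of RAP1, was at 3.21 ± 0.372 FPKM in Ctrl mice (n = 9), with a lowest, median and highest mouse of 2.78, 3.13 and 3.96. It was at 2.52 ± 0.255 FPKM in EtOH mice (2.26, 2.44 and 2.87) and at 2.81 ± 0.304 FPKM in EtOH-UA mice (2.42, 2.87 and 3.33). The EtOH values lay below those of most Ctrl mice with a short overlap. The log2 fold change in EtOH against Ctrl mice was -0.34 ± 0.080 (standard error; limma p = 0.00031, adjusted p = 0.938; exact permutation p = 0.000787), and in EtOH-UA against Ctrl mice it was -0.19 ± 0.080 (limma p = 0.0274, adjusted p = 0.999).

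Adora2a, the adenosine receptor that couples to Gs and raises cAMP, had mean levels of 0.608 ± 0.0867 FPKM (Ctrl mice), 0.440 ± 0.0891 FPKM (EtOH mice) and 0.521 ± 0.144 FPKM (EtOH-UA mice), which rest on few fragments. Its log2 fold change in EtOH against Ctrl mice was -0.40 ± 0.13 (limma p = 0.0055, adjusted p = 0.999; exact permutation p = 0.0014), and the gene is also a marker of striatal neurons. Vav2, a guanine nucleotide exchange factor that binds RAP1, was at 2.64 ± 0.188 FPKM in Ctrl and 2.32 ± 0.311 FPKM in EtOH-UA mice, which differed by -0.19 ± 0.078 on the log2 scale (limma p of 0.0242, adjusted p = 0.999; exact permutation p = 0.019). The RAP2 GTPases, which share exchange factors with RAP1, stood at 32.0 FPKM (Rap2a), 20.8 FPKM (Rap2b) and 13.7 FPKM (Rap2c) in Ctrl mice. Their log2 fold changes lay between -0.076 and 0.034 over the 3 comparisons, with the smallest limma p at 0.0838 for Rap2a in EtOH-UA against Ctrl mice.

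The lists were also described by their medians, with no test. In EtOH-UA against EtOH mice the median log2 fold change was -0.043 for the 3 RAP2 genes, -0.048 for 7 genes of other exchange factors and a chaperone, -0.040 for 6 other GTPase-activating proteins, -0.028 for 24 effectors and adaptors and -0.0019 for 17 receptors, G proteins and adenylyl cyclases, next to 0.0033 over all genes tested. In EtOH against Ctrl mice these medians lay between -0.025 and 0.014, next to -0.0030. In EtOH-UA against Ctrl mice they lay between -0.024 and -0.081, next to 0.0024, and were lowest for the other GTPase-activating proteins (-0.081) and for the other exchange factors and a chaperone (-0.045).

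The genes whose levels were most like a member's were sought among the 12904 genes that averaged 1 FPKM or more, by Pearson's r of deviations from group means over 23 mice, as a description. For Rap1a the first was Rap1b (r = 0.914), before Caap1 (0.901) and Ap3s1 (0.888). For Rap1b they were Smim10l1 (0.928), Dynlt3 (0.927) and Ube2v2 (0.920), and Rap1a ranked 6. For Rapgef3 they were Pou6f1 (0.815), Phc1 (0.808) and Scrt1 (0.807), and for Rap1gap they included Lasp1 (0.874) and Rims4 (0.853). All these values share the same libraries, and so share the slopes described above.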

How the data were processed

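Hippocampal RNA of 23 mice was compared as 9 Ctrl, 7 EtOH and 7 EtOH-UA mice, with groups taken from the column names of 1 table. The methods of the study describe 100-base paired reads of poly(A)+ RNA, whereas the sample labels name total RNA. The authors quantified reads on mm10 with RSEM and deposited FPKM to 2 decimals, and the submitters' processing notes list HISAT2 2.1.0, Bowtie2 2.2.5, RSEM 1.2.8, StringTie and DESeq. FPKM are not counts, so the study's count test was not applied. The deposited table was used as it stood, for all mice.

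The 15986 genes that averaged 0.1 FPKM or more were put on the scale log2(FPKM + 0.1) and fitted with limma 3.58.1 under R 4.3.3 (3 groups, eBayes with trend, no covariate), with Benjamini-Hochberg adjustment over all of them and a threshold of 0.05. Fold changes are on that log2 scale. Exact two-sided permutation tests used 3432 splits of EtOH-UA and EtOH mice and 11440 splits for comparisons with Ctrl. Correlations used 100000 permutations within groups (numpy 2.4.6). Transcript lengths, GC content and sequences came from GENCODE M21, which gave a length for 98.97% of the genes used for the slopes and the likeness. The depth estimate uses full annotated lengths, and its settings were set with the values in view. The fit was tested on simulated data.

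The members and lists were chosen with earlier results of these data known. Genes named outside the 10 members had an unadjusted limma p under 0.05 on a pathway list, were RAP2 genes, or were the 3 most like Rap1a, Rap1b, Rapgef3 or Rap1gap, of which 1 is not reported here. The study states that mice were housed in shared cages, and which mice shared a cage is not given. The tests took no account of cages and treated mice as independent, so p-values may be too small if mice of a cage were alike. The alternatives were other pseudocounts, filters, scalings, fits and each mouse left out. The covariates for GC and choroid plexus, the fit without 2 EtOH-UA mice and all alternatives for correlations were chosen after seeing the data. RAP1 protein and its bound nucleotide were not analysed here.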

Additional observations from a re-analysis of the deposited data

Results flagged for a closer look

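Of the 30 sets of values (10 members in 3 groups), 1 held a mouse far from the others. The lowest EtOH-UA mouse for Sipa1l1 was at 32.64 FPKM, with the next at 44.59 FPKM, and the gap on the log2 scale was 0.583 of the whole range of the group, above the limit of 0.568 for 7 samples (Dixon's test). Chance alone gives about 1 such set in 20, or 1.5 in 30. This was the EtOH-UA mouse with the highest summed FPKM (404609), the lowest length slope (-0.263) and the highest summed choroid plexus level (7813 FPKM), and their part in its Sipa1l1 level was not tested.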

How the results depend on the processing

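No member passed the threshold in limma under any setting, and the smallest adjusted p of a member under any of them was 0.560. Of 420 member log2 fold changes under 14 alternatives, 376 kept their direction and 44 turned it, each from a value within 0.094 of 0. With both slopes as covariates these were EtOH against Ctrl (Rap1b -0.00047, Rapgef2 -0.012, Sipa1l1 -0.0030), EtOH-UA against EtOH (Rapgef1 0.011, Rapgef3 0.031, Rapgef5 0.0039, Sipa1l1 0.032) and EtOH-UA against Ctrl (Rap1a -0.055, Rapgef3 0.038, Rapgef4 0.026, Sipa1l1 0.029). With the choroid plexus level as a covariate these were EtOH against Ctrl (Rap1b -0.0029, Rapgef2 -0.017, Rapgef4 0.0053, Rap1gap 0.047) and EtOH-UA against Ctrl (Rapgef4 0.017). With array quality weights these were EtOH against Ctrl (Rapgef2 -0.00047), EtOH-UA against EtOH (Sipa1l1 0.021) and EtOH-UA against Ctrl (Rapgef4 0.039, Rapgef6 0.026, Sipa1l1 0.057). With the length slope as a covariate these were EtOH against Ctrl (Rapgef2 -0.011, Rapgef3 -0.0058, Sipa1l1 -0.010) and EtOH-UA against EtOH (Sipa1l1 0.0035). With quantile normalization these were EtOH against Ctrl (Rapgef4 0.012, Rap1gap 0.0089) and EtOH-UA against EtOH (Rapgef4 -0.037, Rap1gap -0.0028). With upper-quartile scaling these were EtOH against Ctrl (Rap1gap 0.0068). With TPM scaling these were EtOH against Ctrl (Rap1gap 0.014), EtOH-UA against EtOH (Rapgef4 -0.019, Rap1gap -0.018) and EtOH-UA against Ctrl (Rapgef5 -0.0030, Rap1gap -0.0043). With 2 EtOH-UA mice of highest summed FPKM left out these were EtOH-UA against EtOH (Rapgef1 0.0099, Rapgef3 0.00083, Rapgef5 0.020, Sipa1l1 0.059) and EtOH-UA against Ctrl (Rap1a -0.037, Rapgef3 0.0086, Rapgef4 0.039, Rapgef6 0.068, Sipa1l1 0.088). With single mice left out, the ranges that crossed 0 were EtOH against Ctrl (Rap1b -0.030 to 0.029, Rapgef2 -0.0054 to 0.026, Rapgef3 -0.035 to 0.059, Rap1gap -0.050 to 0.020), EtOH-UA against EtOH (Rapgef3 -0.10 to 0.00079, Rapgef4 -0.0040 to 0.075, Sipa1l1 -0.11 to 0.018), EtOH-UA against Ctrl (Rap1a -0.018 to 0.067, Rapgef3 -0.093 to 0.0086, Rapgef4 -0.047 to 0.031, Rapgef5 -0.0089 to 0.084, Rapgef6 -0.15 to 0.0050, Rap1gap -0.017 to 0.058, Sipa1l1 -0.080 to 0.048). The cause of these turns was not tested. Of the 30 member fold changes, 11 kept their direction under all alternatives, single mice left out included. In EtOH against Ctrl mice Rapgef5 and Rapgef6 stayed higher and Rap1a and Rapgef1 lower. In EtOH-UA against EtOH mice Rap1a and Rap1b stayed higher and Rapgef2 and Rapgef6 lower. In EtOH-UA against Ctrl mice Rap1b stayed higher and Rapgef1 and Rapgef2 lower.

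The count of genes past the threshold was 0 and became 1 in EtOH against Ctrl mice with array quality weights and with the length slope as a covariate (Cd24a both times, named after its values were seen). With single mice left out it ranged from 0 to 1 in each comparison: without 1 Ctrl mouse LOC115488002 was called in EtOH against Ctrl mice, and without either of 2 EtOH-UA mice LOC101055676, above 0 in 5 mice, was called against both other groups. These too were named after their values were seen. Of the 45 member pairs 17 passed the threshold, 9 without both EtOH-UA mice of highest summed FPKM and 0 with both slopes removed. With single mice left out the number ranged from 10 to 19, the 10 being without the EtOH-UA mouse at a summed FPKM of 404609, and the r of Rap1a and Rap1b ranged from 0.893 to 0.939. No paired analysis was possible because the table's columns carry mouse numbers and not the replicate numbers of the labels, for which reason a Ctrl group of replicates 1 to 7 was not run either. The deposited FPKM give no counts, so counting error could be estimated only roughly.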
